A study of Mus musculus with 20 samples.

Results

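The 7 genes described here supply the pump, channel and exchanger proteins credited with moving salt and water into the blastocoel, the fluid cavity of the early mouse embryo. They were chosen by name, with earlier results of these data known. Member counts set beside the share of all genes may therefore reflect that choice. The genes were matched by mouse symbol to the Ensembl gene identifiers of both count tables, in which they are 7 of 30265 genes. Atp1b1 and Atp1b3 encode β subunits of the Na,K-ATPase. Aqp3, Aqp8, Aqp9 and Aqp11 encode aquaporins, and Slc9a3 encodes the sodium-proton exchanger NHE3. Polyadenylated RNA was sequenced in 20 libraries from 2 experiments on Klf5, a Krüppel-like transcription factor. In the first, a mouse embryonic stem cell (ESC) line derived from C57BL/6J mice overexpressed either GFP, the control (n = 2), or Klf5 (n = 2). All 4 cultures received LIF, the cytokine that maintains the undifferentiated state, and grew on irradiated fibroblast feeders of C57BL/6J origin. In the second, preimplantation embryos from mice that the labels call C57BL/5J were given scramble control siRNA (n = 10) or Klf5 siRNA (n = 6), cultured in KSOM medium with BSA under oil, and sequenced as 1 library per embryo at E4.5, the late blastocyst stage. The stem cell libraries were made with the TruSeq v2 chemistry and the embryo libraries with SMART-seq v4. The labels do not say whether the stem cell replicates came from separate cultures or whether the line is 1 clone, so p-values there measure the spread between libraries, which may be technical.

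The blastocoel forms when the outer epithelium of the embryo, the trophectoderm, pumps sodium across itself and water follows. The Na,K-ATPase sits in the basolateral membrane of this epithelium and exports sodium toward the cavity. It is built from a catalytic α subunit and a β subunit that the α subunit needs to fold and reach the membrane. NHE3 brings sodium in at the apical side, and aquaporins let water cross the membranes; Aqp3 and Aqp9 also pass glycerol and other small solutes.

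Klf5 itself was the check on the labels. Its levels, given throughout as CPM (counts scaled to a common library size with TMM factors), were 80.5 and 70.8 in GFP and 942 and 882 in Klf5 stem cell libraries. In scramble embryos Klf5 ran from 382 to 592 with a median of 472 CPM, and in Klf5 siRNA embryos 1 to 6 it was 543, 111, 195, 80.8, 117 and 292 CPM. That value puts the embryo labelled Klf5 siRNA 1 inside the scramble range, against its label; it was kept in all comparisons unless stated. Library totals ran from 26775363 to 37482631 counts in stem cells and from 14701519 to 24939629 in embryos, so that 3 counts correspond to 0.0799 to 0.119 CPM and to 0.0905 to 0.258 CPM. Mitochondrial transcripts took 12.1 ± 4.85% (SD, n = 10) of counts in scramble and 5.01 ± 2.77% (SD, n = 6) in Klf5 siRNA embryos. Library numbers in the labels are lower for every scramble embryo than for any Klf5 siRNA embryo, and these differences cannot be told apart from the siRNA.

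Of the 7 genes, 6 had enough counts to be tested in each experiment. In embryos, Atp1b1 and Aqp3 fell with Klf5 siRNA (edgeR quasi-likelihood test, Benjamini-Hochberg adjusted p under 0.05 over all 12385 genes tested) and none of the 6 rose. Over all tested genes 7.74% were called lower and 12.0% were called higher. Aqp8 was the only member higher at an unadjusted p under 0.05, beside 18.5% of all tested genes. It was also the only one called higher by DESeq2 (13.2% of genes) and by limma voom (11.4%). The 6 members had a median log2 fold change of −0.29, beside −0.01 over all genes. In stem cells none of the 6 was called in either direction, where 1.67% of the 15968 tested genes were called higher and 1.11% were called lower with Klf5. At an unadjusted p under 0.05 edgeR had 4 of 6 members higher (Atp1b1, Aqp3, Aqp8, Aqp9), beside 12.4% of all tested genes. DESeq2 called 3 of its 5 tested members higher, beside 5.75% of genes, and limma voom called 0 of 6, beside 0.407%. All 6 fitted changes there were above 0, with a median log2 fold change of 0.53 beside −0.00 over all genes. Both Klf5 libraries lay above both GFP libraries for 4 of the 6 members (Atp1b1, Aqp3, Aqp8 and Aqp9), an arrangement shown by 28.9% of all tested genes, and for none did both lie below, which 27.4% of genes did. In embryos no member had all Klf5 siRNA embryos above or all below the scramble embryos, beside 2.91% and 1.91% of all tested genes. Whole embryos were sequenced, so fewer cells of a type and less RNA per cell cannot be told apart in any embryo value.

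To compare levels between genes, CPM was divided by transcript length in kilobases. In scramble embryos Aqp3 (56.8 ± 18.1 CPM per kb, SD, n = 10) and Atp1b1 (55.4 ± 12.6) stood highest among the members and did not differ beyond their spread. Atp1b3 followed at 30.2 ± 17.2, Aqp9 at 21.0 ± 5.67 and Aqp8 at 8.91 ± 11.6, and each of these overlapped its neighbour in the order. Aqp11 was at 0.436 ± 0.253 CPM per kb. In Klf5 siRNA embryos the means ran Aqp8 34.7 ± 28.3, Atp1b3 31.6 ± 10.7, Atp1b1 29.9 ± 14.5, Aqp3 20.2 ± 17.6, Aqp9 13.4 ± 6.14 and Aqp11 0.631 ± 0.712 CPM per kb (SD, n = 6). Neighbours in this order overlapped among the first 5, and Aqp11 stood below them. In GFP stem cells the order was Aqp3 (49.5 ± 1.63), Atp1b1 (38.8 ± 0.0813), Atp1b3 (18.7 ± 3.47), Aqp11 (0.954 ± 0.305), Aqp8 (0.296 ± 0.0793) and Aqp9 (0.0862 ± 0.00585 CPM per kb, SD, n = 2), and here each neighbouring pair was separated by more than its spread. Aqp9 was thus the lowest detected member in stem cells and the fourth in scramble embryos. The tables were normalized separately and come from different library kits, so no test was made between them.

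**Figure D1:**
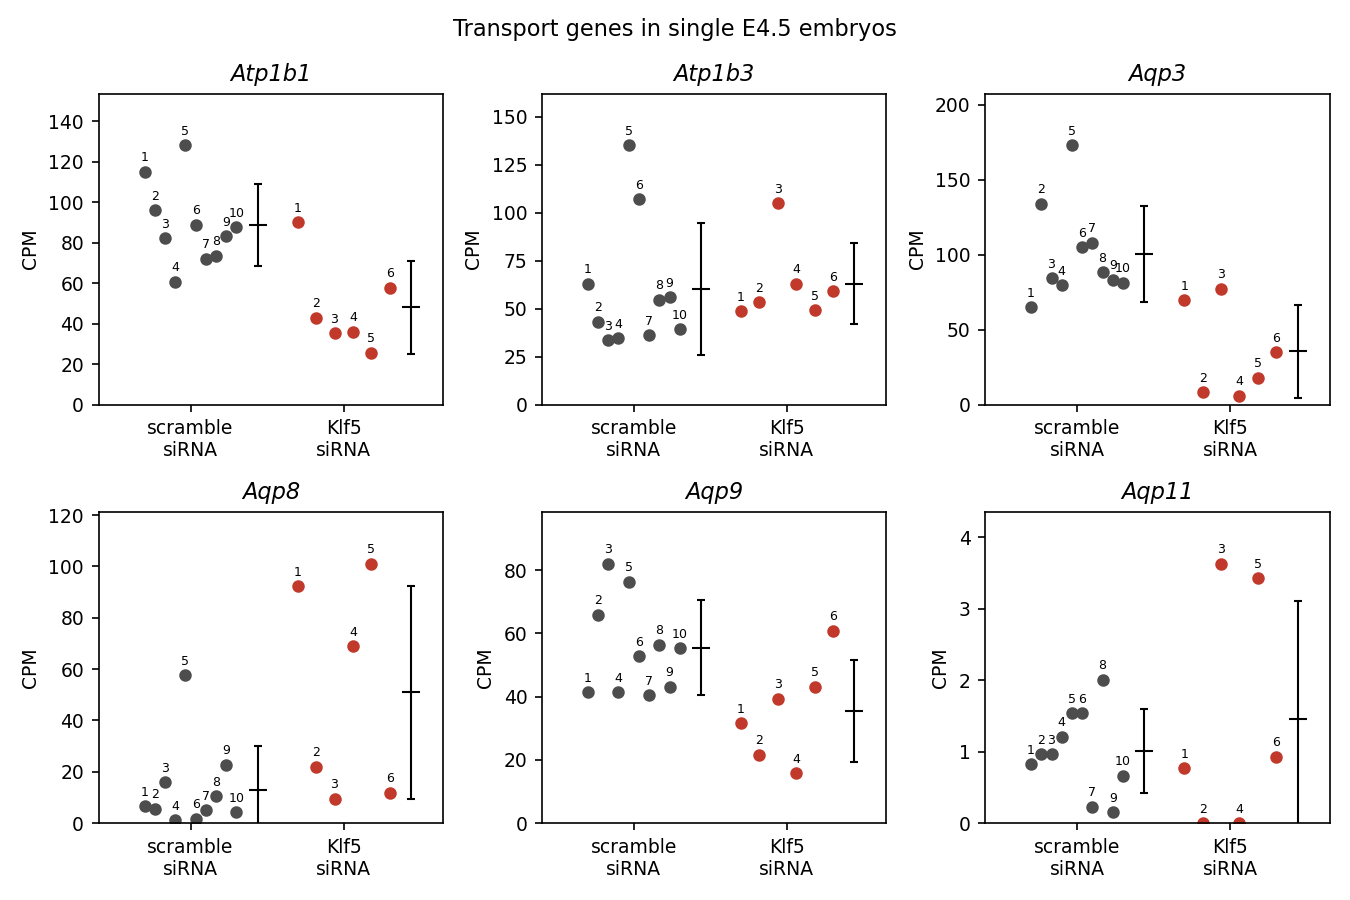
Levels of the 6 detected genes in single E4.5 embryos, in CPM on a linear axis from 0. Each point is 1 embryo, numbered by replicate (grey scramble siRNA, n = 10; red Klf5 siRNA, n = 6); the bar is the mean with 1 SD, and ends below 0 are not drawn. For Atp1b1, 5 of 6 Klf5 siRNA embryos lie below all scramble embryos, and for Aqp3 4 of 6 do.

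Atp1b1 (ENSMUSG00000026576, chr1:164437109-164458355, minus strand of GRCm38/mm10) encodes β1, the β subunit most studied in trophectoderm. In scramble embryos its lowest, median and highest levels were 60.7, 85.4 and 128 CPM. Klf5 siRNA embryos 1 to 6 held 90.0, 43.0, 35.4, 36.0, 25.6 and 57.8 CPM. Embryos 2 to 6 all lay below the lowest scramble embryo, and the embryo labelled Klf5 siRNA 1 lay above the scramble median. The fitted change was −0.89 ± 0.26 (log2, SE; edgeR adjusted p = 0.0230), 1.85-fold lower. Without the embryo labelled Klf5 siRNA 1 it was −1.18 ± 0.25 (adjusted p = 0.00335, edgeR). Leaving out Klf5 siRNA embryo 5 ended the call (−0.77, edgeR adjusted p = 0.0516). So did leaving out embryos 2 and 4 together (−0.76, edgeR adjusted p = 0.101), the 2 embryos lowest in Klf5 (111 and 80.8 CPM). Part of the exons of Atp1b1, 575 of 3081 bases, is shared with Nme7 on the other strand, and no source used here says that counting used strand, so reads of that stretch cannot be told apart. Nme7 was at a mean of 31.5 CPM in scramble and 25.6 in Klf5 siRNA embryos (−0.30 ± 0.27, edgeR adjusted p = 0.471).

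In stem cells Atp1b1 was at 62.2 and 62.4 CPM with GFP and at 108 and 78.8 CPM with Klf5. Both Klf5 libraries were higher, yet they differed from each other by more than the smaller of them differed from GFP. The fitted change of 0.58 ± 0.16 did not pass the test (edgeR adjusted p = 0.0941). It passed with DESeq2 (0.59, adjusted p = 0.0192) and without Klf5 library 2 (0.80, edgeR adjusted p = 0.0179), and was 0.34 without Klf5 library 1 (edgeR adjusted p = 0.203).

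Atp1b3 (ENSMUSG00000032412, chr9:96332655-96364442, minus strand) encodes β3, the other β subunit of the set. Scramble embryos held 33.6, 48.8 and 135 CPM (lowest, median, highest), and Klf5 siRNA embryos 1 to 6 held 48.6, 53.3, 105, 63.0, 49.3 and 59.1 CPM. All Klf5 siRNA values fell inside the scramble range, with embryo 3 the highest. The fitted change was 0.07 ± 0.32 (edgeR adjusted p = 0.909), and its sign depended on the setting. In stem cells the levels were 32.3 and 42.1 CPM with GFP and 43.2 and 42.1 CPM with Klf5, overlapping, with a fitted change of 0.20 ± 0.16 (edgeR adjusted p = 0.484).

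Within each library, the balance of the β subunits can be given as the share of Atp1b1 in the sum of Atp1b1 and Atp1b3 per length. That share was 50.7, 69.0 and 75.3% in scramble embryos (lowest, median, highest) and 29.5, 45.8 and 69.7% in Klf5 siRNA embryos. The Klf5 siRNA median lay below the lowest scramble embryo, while the ranges overlapped. Stem cell shares were 64.8 to 70.5% with GFP and 69.9 to 75.6% with Klf5.

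Aqp3 (ENSMUSG00000028435, chr4:41092722-41098183, minus strand) encodes a basolateral water and glycerol channel of many epithelia. In scramble embryos it was at 65.0, 86.4 and 173 CPM (lowest, median, highest). Klf5 siRNA embryos 1 to 6 held 69.7, 8.30, 77.3, 5.88, 18.0 and 34.9 CPM. Embryos 2, 4, 5 and 6 lay below every scramble embryo, embryos 1 and 3 lay in the lower part of the scramble range, and all 6 were below the scramble median. The 3 embryos lowest in Aqp3 (4, 2 and 5) were the 3 lowest in Klf5. Embryos 3, 6 and 1, with Klf5 at 195, 292 and 543 CPM, did not keep that order, with Aqp3 at 77.3, 34.9 and 69.7 CPM. The fitted change was −1.49 ± 0.46 (log2, SE; edgeR adjusted p = 0.0269), 2.81-fold lower, and without the embryo labelled Klf5 siRNA 1 it was −1.77 ± 0.49 (adjusted p = 0.0176). The call ended when Klf5 siRNA embryo 2 (−1.27, edgeR adjusted p = 0.0535), 5 (−1.34, 0.0687) or 6 (−1.47, 0.0544) was left out, and when embryos 2 and 4 were left out together (−0.99, 0.0728).

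In stem cells Aqp3 was at 89.4 and 85.3 CPM with GFP and at 125 and 119 CPM with Klf5. The groups did not overlap and replicates lay close together. The fitted change of 0.48 ± 0.11, or 1.40-fold, missed the threshold (edgeR adjusted p = 0.0606) and passed it with DESeq2 (0.49, adjusted p = 0.00396), without the low-count filter (0.50, edgeR adjusted p = 0.0414) and with a 5 CPM filter (0.47, edgeR adjusted p = 0.0477).

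Aqp8 (ENSMUSG00000030762, chr7:123462291-123468004, plus strand) encodes a channel that passes water and ammonia. In scramble embryos it was at 1.10, 6.13 and 57.6 CPM (lowest, median, highest), with scramble embryo 5 the highest. Klf5 siRNA embryos 1 to 6 held 92.4, 22.0, 9.51, 69.0, 101 and 11.9 CPM. All 6 were above the scramble median and embryos 1, 4 and 5 were above every scramble embryo, although the embryo labelled Klf5 siRNA 1 is one of these 3. The fitted change of 1.96 ± 0.70 narrowly missed the threshold (edgeR adjusted p = 0.0531). It was 2.64 ± 0.62 without scramble embryo 5 (adjusted p = 0.00554, edgeR) and 1.67 ± 0.73 without the embryo labelled Klf5 siRNA 1 (adjusted p = 0.118, edgeR). It passed with upper quartile scaling, DESeq2, limma voom, a 5 CPM filter and a transcript length correction (adjusted p from 0.0251 to 0.0400). It was 1.85 without the low-count filter (edgeR adjusted p = 0.102) and 1.00 ± 0.82 with the mitochondrial percent, which differs between the groups, as a covariate (edgeR adjusted p = 0.446).

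In stem cells Aqp8 was at 0.517 and 0.352 CPM with GFP and at 1.60 and 6.68 CPM with Klf5. Both Klf5 libraries were higher, and Klf5 library 2 stood well above library 1. The summed primitive endoderm markers were also highest in that library (1606 and 1265 CPM with GFP, 1733 and 4344 CPM with Klf5), and their part in the result was not tested. The fitted change of 3.27 ± 0.80 did not pass the test (edgeR adjusted p = 0.0946), and DESeq2 called it (3.27, adjusted p = 0.000361). It was 1.90 without Klf5 library 2 (edgeR adjusted p = 0.0680) and 3.97 without Klf5 library 1 (edgeR adjusted p = 0.00137), so its size rests on library 2.

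Aqp9 (ENSMUSG00000032204, chr9:71110659-71168682, minus strand) encodes a channel for water, glycerol and other neutral solutes. In scramble embryos it was at 40.5, 54.0 and 82.0 CPM (lowest, median, highest), and in Klf5 siRNA embryos 1 to 6 at 31.6, 21.7, 39.4, 15.8, 43.1 and 60.9 CPM. Embryos 1 to 4 lay below every scramble embryo and embryo 6 lay above the scramble median. The fitted change of −0.65 ± 0.28 did not pass the test (edgeR adjusted p = 0.113), but passed it without Klf5 siRNA embryo 6 (−0.89, adjusted p = 0.0411) and with the mitochondrial percent as a covariate (−1.05, adjusted p = 0.0459). It was −0.35 with the length correction (edgeR adjusted p = 0.391) and −0.34 without Klf5 siRNA embryos 2 and 4 (adjusted p = 0.435). In stem cells Aqp9 was near the detection floor, at 0.239 and 0.217 CPM with GFP and 0.707 and 0.559 CPM with Klf5. The Klf5 libraries were both higher, on at most 26 counts, and the change was not called (1.47 ± 0.48, edgeR adjusted p = 0.131).

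Aqp11 (ENSMUSG00000042797, chr7:97724006-97738289, minus strand) encodes an aquaporin found mainly on intracellular membranes. In scramble embryos it was at 0.156, 0.967 and 2.01 CPM (lowest, median, highest), and in Klf5 siRNA embryos 1 to 6 at 0.773, 0, 3.63, 0, 3.43 and 0.931 CPM. Klf5 siRNA embryos lay on both sides of the scramble range, with a count of 0 in embryos 2 and 4 and the highest levels in embryos 3 and 5. The fitted change was 0.53 ± 0.91 (edgeR adjusted p = 0.723), and its sign depended on the setting. In stem cells the levels were 1.71 and 2.71 CPM with GFP and 3.24 and 2.50 CPM with Klf5, which overlap (0.36 ± 0.32, edgeR adjusted p = 0.529).

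**Figure D2:**
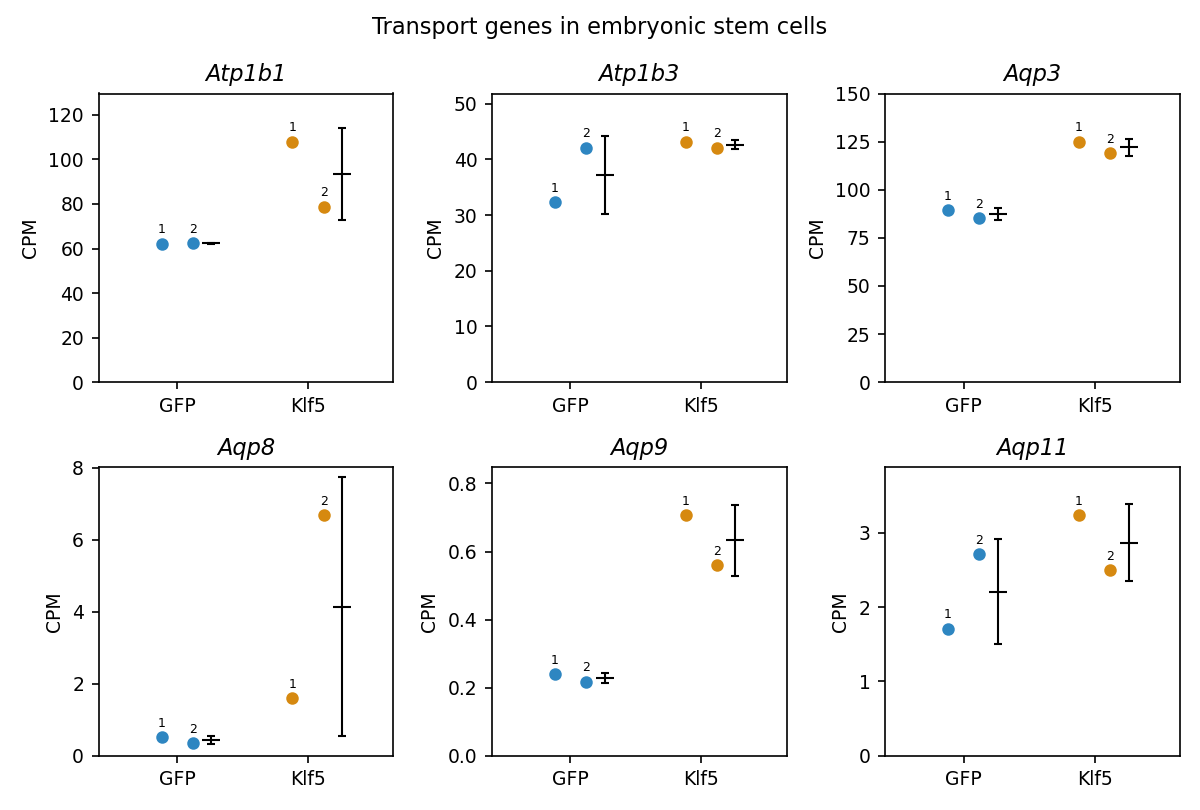
Levels of the 6 detected genes in embryonic stem cells, in CPM on linear axes from 0 that differ between panels. Each point is 1 library numbered by replicate (blue GFP, orange Klf5, n = 2 each), with the mean and 1 SD beside it. Both Klf5 libraries lie above both GFP libraries for Atp1b1, Aqp3, Aqp8 and Aqp9, and the groups overlap for Atp1b3 and Aqp11.

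Slc9a3 (ENSMUSG00000036123, chr13:74121457-74169442, plus strand) was listed at 0 in all 20 libraries, as were 6664 of the 30265 genes. At these depths a count of 0 allows up to 0.119 CPM in stem cells and 0.258 CPM in embryos, in counting error only. Whether the counting annotation covered Slc9a3 properly was not tested, so the 0 says only that the gene was listed without counts. No comparison was possible for it.

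The promoters of Atp1b1 and Aqp3, the members that fell in embryos, and of Aqp8, whose fitted change had the opposite sign, are shown to let their Krüppel-like factor letters be compared. Each window runs from 250 bases before to 50 bases after the RefSeq start on GRCm38.p6 and is written 5′ to 3′ on the gene's strand. Capitals mark CACCC or its reverse complement GGGTG and GGGCGG or its reverse complement CCGCCC, letters of the kind that Krüppel-like and Sp factors bind; neighbouring matches can overlap.
Atp1b1, chr1:164458306-164458605, minus strand: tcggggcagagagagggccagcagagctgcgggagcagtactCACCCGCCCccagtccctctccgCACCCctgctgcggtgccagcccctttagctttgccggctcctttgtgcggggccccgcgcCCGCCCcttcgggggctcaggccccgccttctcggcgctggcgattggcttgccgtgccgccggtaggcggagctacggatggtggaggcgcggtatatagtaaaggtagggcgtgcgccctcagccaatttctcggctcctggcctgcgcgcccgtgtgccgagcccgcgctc
Aqp3, chr4:41098134-41098433, minus strand: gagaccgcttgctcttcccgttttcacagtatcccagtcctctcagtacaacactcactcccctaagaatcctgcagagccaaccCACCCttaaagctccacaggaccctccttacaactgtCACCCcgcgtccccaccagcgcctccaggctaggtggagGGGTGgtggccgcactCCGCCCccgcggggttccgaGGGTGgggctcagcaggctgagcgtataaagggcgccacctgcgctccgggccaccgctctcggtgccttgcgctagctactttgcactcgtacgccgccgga
Aqp8, chr7:123462044-123462343, plus strand: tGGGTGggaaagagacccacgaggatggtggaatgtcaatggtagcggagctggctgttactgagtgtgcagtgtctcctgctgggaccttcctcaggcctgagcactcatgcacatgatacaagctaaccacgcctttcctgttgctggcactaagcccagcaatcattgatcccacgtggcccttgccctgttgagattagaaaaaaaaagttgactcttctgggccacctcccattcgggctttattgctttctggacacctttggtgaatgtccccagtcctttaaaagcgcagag

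The Atp1b1 window holds 2 CACCC and 2 GGGCGG matches, of which 1 pair overlaps, and is 71.0% G and C. Aqp3 holds 4 CACCC and 1 GGGCGG match at 64.0% G and C, and Aqp8 holds 1 CACCC match, no GGGCGG match and 52.0% G and C. Among all 32851 windows of the same length, 57.5% hold CACCC and 35.7% hold GGGCGG on either strand, 23.8% hold both, and the median G and C content is 52.7%. All 7 members had a window, and Atp1b3 and Aqp9 had more than 1. Both Aqp9 windows hold neither motif. Of the Atp1b3 windows, 1 holds 1 CACCC and 6 GGGCGG matches at 76% G and C, and the other holds 1 CACCC match. Atp1b3 was not called in embryos (fitted change 0.07). Aqp11, also not called, holds 2 CACCC matches, and Slc9a3, listed without counts, holds 2 CACCC and 3 GGGCGG matches. A match describes letters in the window and is no evidence of binding.

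The make-up of the 4 aquaporins within each library sets their changes on 1 scale. Per length, Aqp3 was 97.0 to 97.7% of the 4 in GFP and 92.0 to 96.3% in Klf5 stem cells. In scramble embryos Aqp3 was 53.1, 65.0 and 76.5% (lowest, median, highest), Aqp9 was 17.3, 25.0 and 34.5%, and Aqp8 was 1.20, 6.06 and 23.5%. Aqp3 therefore led in every scramble embryo. In Klf5 siRNA embryos Aqp3 was 5.92, 25.6 and 65.6%, Aqp9 was 10.4, 19.6 and 45.0%, and Aqp8 was 9.70, 54.2 and 83.5%. Aqp8 was the largest share in Klf5 siRNA embryos 1, 2, 4 and 5, Aqp3 in embryo 3 and Aqp9 in embryo 6.

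**Figure D3:**
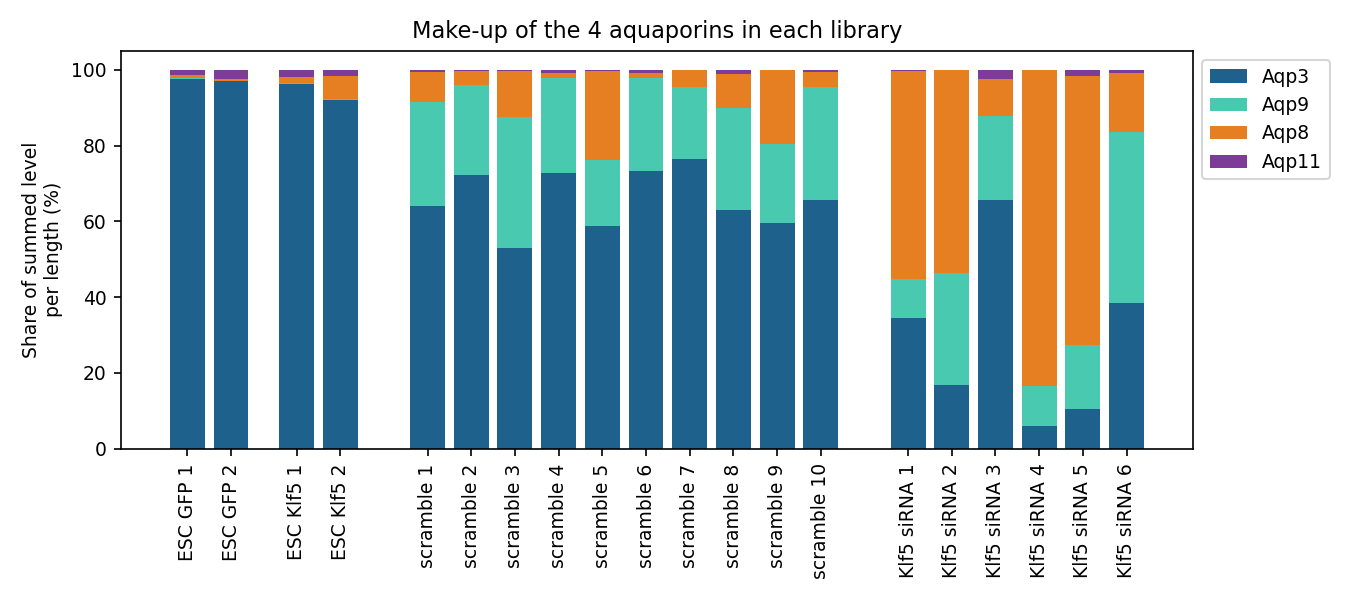
Share of each aquaporin in the summed level of the 4 per transcript length, in percent, with 1 stacked bar per library. Aqp3 fills at least 92.0% of every stem cell bar and 53.1 to 76.5% of scramble bars, while in Klf5 siRNA embryos it ranges from 5.92 to 65.6% and Aqp8 from 9.70 to 83.5%.

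The wider Na,K-ATPase list held 11 other subunits and FXYD regulators, small proteins that tune the pump. Of the 6 tested in each experiment none rose or fell; their median log2 fold changes were −0.15 in stem cells and −0.65 in embryos. The smallest p belonged to Fxyd6 in stem cells (−1.04 ± 0.26, edgeR adjusted p = 0.0821) and to the β2 gene Atp1b2 in embryos (−2.96 ± 1.20, edgeR adjusted p = 0.0875). These were the only ones of the list with an unadjusted p under 0.05; DESeq2 called 1 gene lower in each experiment, beside 4.60% of all genes in stem cells and 10.4% in embryos, and limma voom called 0. Without the embryo labelled Klf5 siRNA 1, 1 of the 6 fell in embryos, Atp1b2, beside 995 of all 12788 genes tested there. Among 8 other aquaporins none was called by edgeR, DESeq2 or limma voom. In stem cells 5 were tested, with Aqp1, the red cell and kidney water channel, closest to the threshold (0.92 ± 0.27, edgeR adjusted p = 0.105) and alone below an unadjusted p of 0.05. In embryos only the glycerol channel Aqp7 was tested (0.35 ± 0.62, edgeR adjusted p = 0.734), while Aqp1, Aqp2, Aqp6 and Aqp12 were listed at 0.

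Scaffold genes of the NHE3 complex moved in embryos although Slc9a3 itself was not detected. Of 13 other exchangers and scaffolds 9 were tested, 3 fell and none rose, with a median log2 fold change of −1.18. Over all tested genes 7.74% fell and 12.0% rose. Slc9a3r1, which encodes the scaffold NHERF1, was at 66.0, 113 and 169 CPM in scramble embryos (lowest, median, highest) and at 8.74 to 55.8 CPM in Klf5 siRNA embryos. All Klf5 siRNA embryos were lower, including the embryo labelled Klf5 siRNA 1, whose Klf5 lay inside the scramble range. Among all tested genes, 1.91% had every Klf5 siRNA embryo below every scramble embryo. The fitted fall of Slc9a3r1 was 3.65-fold (−1.87 ± 0.35, edgeR adjusted p = 0.00119). Ezr, encoding ezrin, the linker of apical membrane to actin, was at 38.5, 51.8 and 79.7 CPM in scramble and 8.84 to 34.5 CPM in Klf5 siRNA embryos. These groups did not overlap either, and Ezr fell 2.75-fold (−1.46 ± 0.31, edgeR adjusted p = 0.00309). Pdzk1, encoding a scaffold of apical transporters, was at 10.3, 20.5 and 49.1 CPM in scramble and 0 to 10.4 CPM in Klf5 siRNA embryos, where only the top Klf5 siRNA value reached the scramble range. It fell 5.10-fold (−2.35 ± 0.72, edgeR adjusted p = 0.0271). All 3 calls remained without the embryo labelled Klf5 siRNA 1 and without embryos 2 and 4.

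In stem cells 10 of these 13 genes were tested, 1 rose and none fell, beside 1.67% and 1.11% of all tested genes. Slc9a3r1 was at 69.6 and 81.4 CPM with GFP and 156 to 159 CPM with Klf5. Both Klf5 libraries lay above both GFP libraries, as they did for 28.9% of all tested genes. It rose 2.08-fold (1.06 ± 0.12, edgeR adjusted p = 0.0285), a call lost without GFP library 1 (0.95, adjusted p = 0.132). Ezr (0.08 ± 0.11, edgeR adjusted p = 0.715) and Pdzk1 (−0.37 ± 0.59, adjusted p = 0.747) were not called.

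Of 15 other genes of epithelial sodium, chloride and bicarbonate transport, 9 were tested in embryos. Of these 2 rose and none fell, beside 12.0% and 7.74% of all tested genes, with a median log2 fold change of 0.56. The sign of that median depended on the setting. It was −0.18 with limma voom, −0.70 without the low-count filter and −0.31 with replicate number as a block. It was −0.12 without Klf5 siRNA embryo 2, and above 0 in the other settings. The 2 that rose encode carbonic anhydrases, which interconvert carbon dioxide and bicarbonate. Car4, the membrane-anchored form, was at 10.6, 15.9 and 45.2 CPM in scramble and 15.6, 135 and 331 CPM in Klf5 siRNA embryos (lowest, median, highest). The ranges overlapped at their ends, and Car4 rose 7.62-fold (2.93 ± 0.47, edgeR adjusted p = 0.000352). Car2, the cytosolic form, was at 1.61, 6.59 and 18.3 CPM in scramble and 3.18, 54.9 and 79.7 CPM in Klf5 siRNA embryos. It rose 5.68-fold (2.51 ± 0.60, edgeR adjusted p = 0.00637), a call lost with the mitochondrial percent as a covariate (2.30, adjusted p = 0.0855). In stem cells 12 were tested, none rose and 1 fell, beside 1.67% and 1.11% of all tested genes. Their median log2 fold change was 0.21. Scnn1a, encoding the α subunit of the epithelial sodium channel, was at 15.6 to 20.5 CPM with GFP and 8.39 to 8.70 CPM with Klf5. It fell 2.11-fold (−1.08 ± 0.19, edgeR adjusted p = 0.0399), a call lost with limma voom (−1.04, adjusted p = 0.0644) and without GFP library 1 (−0.87, adjusted p = 0.247).

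**Figure D4:**
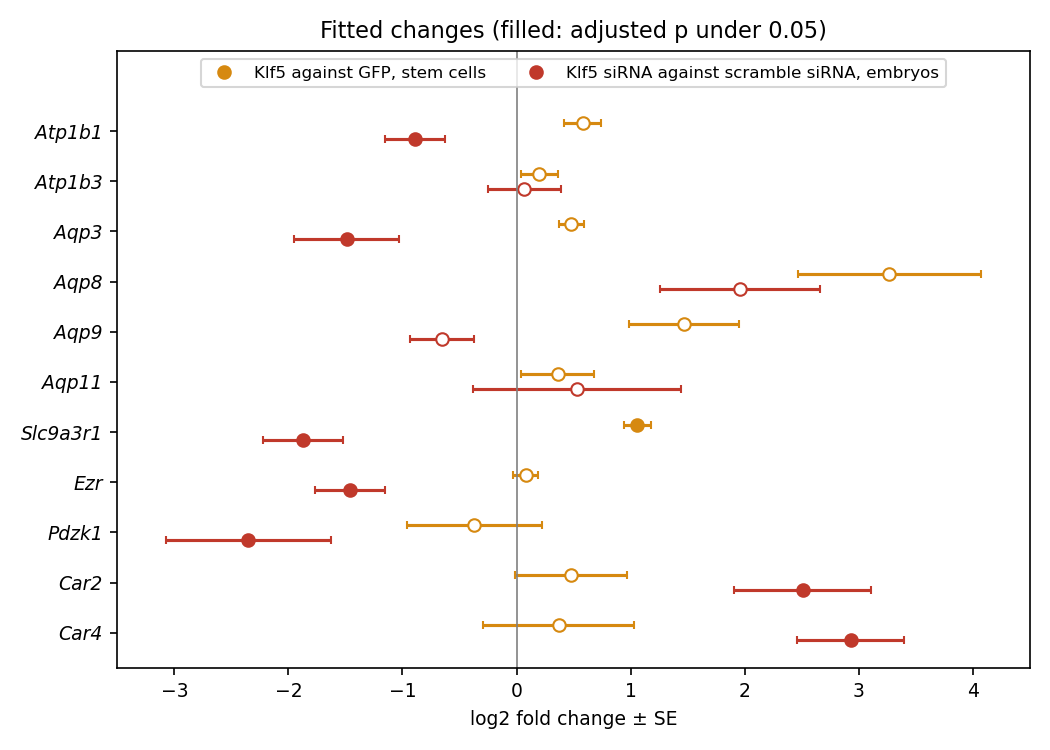
Fitted log2 fold changes with 1 SE for the 6 tested genes and 5 genes of the other transport lists, in stem cells (orange, Klf5 against GFP) and embryos (red, Klf5 siRNA against scramble siRNA). The 5 genes are those of the other lists called in embryos. Scnn1a, called lower in stem cells (−1.08), is not drawn. Filled points passed an adjusted p of 0.05; in embryos Atp1b1 (−0.89), Aqp3 (−1.49), Slc9a3r1 (−1.87), Ezr (−1.46) and Pdzk1 (−2.35) lie to the left and Car2 (2.51) and Car4 (2.93) to the right.

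Many markers of the tissue that carries the pump also fell in Klf5 siRNA embryos. Of 17 tested trophectoderm markers 11 fell in Klf5 siRNA embryos and none rose, where 7.74% of all tested genes fell and 12.0% rose. Their sum was 4604 to 10336 CPM in scramble embryos and 4407, 564, 1497, 1810, 2288 and 5171 CPM in Klf5 siRNA embryos 1 to 6. Embryo 6 and the embryo labelled Klf5 siRNA 1 have the highest marker sums of the group. They also have its highest Atp1b1 and its highest Klf5 levels (Klf5 292 and 543 CPM). Embryo 3, with a sum of 1497 CPM, has the group's highest Atp1b3 (105 CPM) and Aqp3 (77.3 CPM). Embryo 2 has the lowest sum, yet its Atp1b1 (43.0 CPM) exceeds that of embryos 3, 4 and 5. The part of the markers in the results was not tested. Without Klf5 siRNA embryos 2 and 4, 7 of the 17 fell, beside 737 of all 13090 genes tested there. Of 14 tested inner cell mass and epiblast markers 2 rose (Klf2, Dppa4) and 1 fell (Fgf4), near the shares of all genes. Their sums were 353 to 1026 CPM in scramble and 584 to 1107 CPM in Klf5 siRNA embryos. Of 13 tested primitive endoderm markers 2 (Sox17, Pdgfra) fell and none rose (678 to 1059 and 573 to 1122 CPM). Yet 11 of the 13 had fitted changes below 0, with a median log2 fold change of −1.51, beside −1.63 for the trophectoderm markers. The primitive endoderm median was −0.75 with a 5 CPM filter and −0.59 with the mitochondrial percent as a covariate. Markers of cells that could adhere to embryos were scarce: fibroblast markers summed to 0.360 to 4.44 CPM in scramble and 1.37 to 22.6 CPM in Klf5 siRNA embryos with Lum at 0 (1 was tested, Thy1, and rose), and granulosa markers to 0.231 to 8.84 and 5.49 to 13.9 CPM with Amh, Fshr and Nr5a1 at 0 (1 was tested, Amhr2, and was not called). In stem cells, where 1.67% of all tested genes rose, 4 of 14 tested primitive endoderm markers rose (Sox7, Dab2, Cubn, Hnf4a). Of 15 inner cell mass markers 2 rose (Tbx3, Tdh). None of 15 trophectoderm markers was called by edgeR or limma voom. At an unadjusted p under 0.05, 6 of the 15 were lower, beside 10.8% of all tested genes, and 1 (Eomes) was higher; DESeq2 called 4 of its 14 lower, beside 4.60% of genes. Of 12 tested fibroblast markers, which the feeders carry, 1 rose (Col1a2). They summed to 921 and 1102 CPM with GFP and to 1453 and 1457 CPM with Klf5, higher in both Klf5 libraries, as were Atp1b1, Aqp3, Aqp8 and Aqp9; their part was not tested.

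The members did not vary as 1 block among embryos. After the mean of each siRNA group was taken off, log2 CPM over the 16 embryos correlated at Pearson's r = 0.71 between Aqp9 and Aqp11, 0.66 between Aqp3 and Aqp11, 0.62 between Aqp3 and Aqp9 and 0.43 between Aqp3 and Atp1b1. The other pairs lay between −0.11 and 0.29, and Aqp8 was no closer than 0.25 to any other member. These values are descriptions, since all genes of an embryo share its library and depth. Aqp11 had low counts, at most 84 in any embryo and 0 in Klf5 siRNA embryos 2 and 4. Those embryos were also the lowest of their group in Aqp3 and Aqp9, and their part in the correlations was not tested. Among the 12385 tested genes, those most like Aqp3 included Parva (r = 0.94) and Cerk (0.91), and those most like Atp1b1 were Unc93a2 (0.83), Ppip5k2 (0.82) and Mfsd13a (0.80). For Aqp9 they were Prkab1 (0.94), Tspan15 (0.92) and Tmem62 (0.89), and for Aqp8 Edaradd (0.74), Sec14l2 (0.72) and Ift88 (0.68). Atp1b3 was closest to Yrdc (0.93), Fnta (0.92) and Kat5 (0.92), and Aqp11 to Rbms1 (0.94), S1pr5 (0.87) and Aacs (0.87).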

How the data were processed

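The authors deposited estimated counts per gene for each stem cell and embryo library; per the submitters' processing notes these came from kallisto 0.46 with mm10. The step from transcripts to genes and the annotation release are not given in the sources used here. Estimated counts were rounded, which moved no library total by more than 0.000756%. Of 30265 genes, 29910 matched a symbol. Each experiment was fitted alone in R 4.3.3 with edgeR 4.0.16: filterByExpr (lowest count 10), TMM, a robust quasi-likelihood test and Benjamini-Hochberg adjustment over all tested genes, called at 0.05. DESeq2 1.42.0 and limma 3.58.1 (voom) were alternatives, beside other scalings, filters, left-out libraries, a transcript length offset, the mitochondrial percent as a covariate and a replicate block. Lengths and coordinates are from GENCODE M21 and promoter windows from RefSeq. Members and lists were chosen with earlier results of these data known. Named are all 7 members, every called gene of the other lists, the smallest p where none was called, and the 3 genes most like each member; 2 genes that these choices would name are not reported here.

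On simulated counts the stem cell fit (15968 genes) recovered 50.5% of 2-fold and 92.7% of 4-fold changes with 19 of 158 calls false. The embryo fit (12385 genes) recovered 2.06% and 43.3%, with 0 of 44 calls false. The simulations changed few genes, 99 by 2-fold and 96 by 4-fold in stem cells and 97 and 97 in embryos. The data had more calls, 444 in stem cells and 2447 in embryos. Adjustment was therefore stricter in the simulations, and their recovery does not carry over to the data. No 2 libraries of a group were alike within sampling noise (chi-square over its degrees of freedom at least 21.1).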

Additional observations from a re-analysis of the deposited data

Results flagged for a closer look

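Atp1b3 in Klf5 siRNA embryo 3 stood far above the other embryos of its group, at 105 CPM against 63.0 CPM in the next highest. It was the only one of 12 groups of embryo values (6 genes in each siRNA group) so far apart, and chance alone marks about 1 group in 20. Without that embryo the fitted log2 fold change of Atp1b3 was −0.17 in place of 0.07, and neither passed the test.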

How the results depend on the processing

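In stem cells 444 genes were called, beside 1438 with DESeq2, 115 with limma voom, 870 without the filter, 155 with the replicate block and 1 to 998 when 1 library was left out (1 without GFP library 1). The count of members called higher was 0, beside 3 with DESeq2 (Atp1b1, Aqp3, Aqp8), 1 without the filter, 1 with a 5 CPM filter and 0 to 1 with 1 library left out. A crossed pairing, chosen after seeing the data, gave 1475 genes and 3 members. Between libraries with the same replicate number, deviations from the group mean correlated at −0.108 in stem cells and −0.114 to 0.108 in embryos. With 2 libraries per group the stem cell pairs share 1 value. These correlations do not settle whether the numbers pair the libraries.

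In embryos 2447 genes were called, beside 902 with the replicate block on the 12 embryos that share a number and 1423 in the same embryos unblocked. Members called lower were 2, and 0 with the block, 0 in those 12 embryos unblocked, 0 without Klf5 siRNA embryos 2 and 4, 3 with the mitochondrial percent as a covariate, and 0 to 2 with 1 embryo left out. Members called higher were 0, and 1 (Aqp8) with upper quartile scaling, DESeq2, limma voom, a 5 CPM filter or a length offset, and 0 to 1 with 1 embryo left out. With the replicate block Atp1b1 was at −1.09 (edgeR adjusted p = 0.0675) and Aqp3 at −2.15 (0.0842). The block also ended the calls of Car2 in embryos (2.17, edgeR adjusted p = 0.170) and of Scnn1a in stem cells (−1.07, 0.0608). Pdzk1 was not called in the 12 embryos unblocked (−2.55, 0.0652). Over 27 alternatives Atp1b1 ran from −1.18 to −0.76 and Aqp3 from −2.15 to −0.99.

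Signs turned for genes that were not called. Atp1b3 (0.07) was −0.02 without the filter, −0.01 with the block, −0.14 in the 12 embryos unblocked, −0.51 with the mitochondrial covariate and −0.17 to 0.28 with 1 embryo left out (below 0 without scramble embryo 3 or 4 or Klf5 siRNA embryo 3). Aqp11 (0.53) was −0.82 with voom, −0.90 with the block, −0.57 with the covariate and −0.00 (without Klf5 siRNA embryo 3) to 0.81 with 1 embryo left out. The cause was not tested. The median of all genes moved to −0.12 with voom and −0.13 with the block. The spread among embryos limits what 2-fold changes can be called.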
